A study of Mus musculus with 65 samples.

Results

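The respiratory chain was followed through its messenger RNAs in primary neural stem cells of the mouse subventricular zone. Members were the counted features whose Ensembl identifier GENCODE names as a protein-coding gene of complexes I to V, by symbol prefix (Nduf, Uqcr, Atp5, Cox4 to Cox8, mt-Nd, mt-Co, mt-Atp) or exact symbol (mt-Cytb, Cyc1, Sdha to Sdhd). The rule found 108 of 31057 counted features: 13 lie on the mitochondrial chromosome and 95 on nuclear chromosomes. The nuclear members are 36 of complex I, 8 complex I assembly factors that share the Nduf prefix, 4 of complex II, 9 of complex III, 20 of complex IV, 17 of complex V and Atp5s. Atp5o is held by 2 features.

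All cells came from mice that carry a doxycycline-inducible cassette of Oct4, Sox2, Klf4 and Myc, from 4 old mice (25 months) and 5 young mice (3 to 4 months) of both sexes. The 65 libraries form 15 groups, each with 4 old or 5 young animals. In NSC medium, which holds the growth factors EGF and bFGF, doxycycline (2 µg/ml) was given to old cells sampled at 6, 18 and 48 h and to young cells sampled at 18 h, and untreated old and young cells were sampled at 18 h. In differentiation medium, which lacks both factors and was applied 18 h after plating, doxycycline-treated old cells, untreated old cells and untreated young cells were each sampled at 6, 18 and 48 h. No doxycycline group without the cassette was analysed here, so effects of the drug and of the cassette cannot be told apart. No untreated NSC group at 6 or 48 h was analysed either, so differentiation and time in culture cannot be told apart at those times. Each replicate is 1 animal, and the same animals recur across conditions.

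Complexes I, III and IV pump protons across the inner mitochondrial membrane as they pass electrons to oxygen, and complex V, the ATP synthase, uses the proton gradient to make ATP. Complex II feeds electrons from succinate and is built wholly from nuclear genes, whereas the other complexes join nuclear subunits to subunits read from mitochondrial DNA. Mitochondrial DNA is transcribed as long precursors from both strands and cut into single messengers, so levels of its messengers depend on processing and decay as well as on transcription. Neural stem cells rely largely on glycolysis, and a shift towards oxidative metabolism is a known feature of their differentiation.

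Between 56483730 and 116835539 counts were assigned per library (median 86693655). Among counts of 1 to 20, 70.6% to 78.7% were even in each library, as when both mates of a read pair are counted, so counts overstate the number of fragments. All 10 neural stem and progenitor markers were counted, and Sox2 lay between 216.4 and 385.2 CPM (counts per 1000000 of the TMM-scaled library total, the unit used throughout). Markers of other cell types were mixed. Among microglia markers Csf1r had 4.23 to 11.2 CPM and P2ry12 at most 3.08 CPM, and the others, such as Cx3cr1, at most 0.408 CPM. Among endothelial markers Flt1 reached 20.4 CPM and Kdr 10.2 CPM, and the others, such as Cldn5, at most 1.27 CPM. Of ependymal markers Foxj1 had 7.30 to 71.6 CPM and Tmem212 at most 0.0316 CPM. Of mural and fibroblast markers Acta2 had 0.700 to 167.6 CPM and Dcn at most 0.0698 CPM. Pou5f1, the Oct4 gene of the cassette, was low throughout, at 0.168 to 1.38 CPM in 29 doxycycline libraries and 0 to 0.364 CPM in 36 untreated libraries. Its doxycycline libraries lay above the untreated ones without overlap in young NSC medium and in old cells at 6 and 18 h of differentiation, and the ranges overlapped in old NSC medium and at 48 h. Sox2, Klf4 and Myc are expressed by these cells without the cassette. In old NSC medium Sox2 and Klf4 overlapped between the arms, and Myc was lower with doxycycline, at 152.3 to 166 CPM with and 167.3 to 180.3 CPM without it.

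Several mitochondrial messengers have near-identical stretches in the nuclear genome, which bears on how their counts can be read. A search of the 13 mitochondrial genes against all GENCODE transcripts (GRCm38) found a block of copies on the minus strand of chromosome 1, between positions 24611535 and 24616197. These copies cover 783 of 784 bases of mt-Co3, 681 of 684 of mt-Co2, 678 of 681 of mt-Atp6 and 294 of 297 of mt-Nd4l without a mismatch, and 345 of 348 bases of mt-Nd3 with 1. The copy of mt-Nd4 covers 63.6% of the gene, and that of mt-Co1 31.3%. The copies themselves were not used here, and how the authors' counting treated reads that match more than 1 place is not given in the sources used here. The opening 40 bases of mt-Nd3 and mt-Co2 are shown with those of their chromosome 1 copies (Gm28438 and Gm28661), because these messengers recur below. Capitals mark the base that differs, T3C, counted from 1 at the 5′ end of mt-Nd3.
mt-Nd3, chrM:9459-9498, plus strand: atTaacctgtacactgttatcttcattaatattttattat
Gm28438, chr1:24613080-24613119, minus strand: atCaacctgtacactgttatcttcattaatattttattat
mt-Co2, chrM:7013-7052, plus strand: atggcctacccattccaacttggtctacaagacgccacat
Gm28661, chr1:24615526-24615565, minus strand: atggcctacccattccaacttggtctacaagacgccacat
No base separates mt-Co2 from its copy in this window.

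Levels per kilobase of gene differed widely among mitochondrial messengers. Averaged over the 65 libraries, mt-Nd1 had 2752 CPM per kilobase, mt-Co1 2741 and mt-Cytb 2544, while mt-Atp6 had 46.4, mt-Co3 26.1 and mt-Co2 16.9. The 5 messengers covered almost fully by the annotated chromosome 1 copies were mt-Nd3 (507 CPM per kilobase), mt-Nd4l (263), mt-Atp6, mt-Co3 and mt-Co2, and all lay below mt-Nd4 (784). Mt-Atp8, which overlaps mt-Atp6 on the same strand, had 62.2. The search covered annotated transcripts only, so a copy of mt-Atp8 in an unannotated part of the chromosome 1 block would not have been found. Mt-Nd6, the one protein gene on the opposite strand, had 1398, and its end overlaps that of mt-Nd5. The strand setting of the counting is not given in the sources used here, so reads of mt-Nd6 and of transcripts antisense to it cannot be told apart. For comparison, the most abundant nuclear members per kilobase were Cox8a (425), Atp5b (343), Atp5a1 (313) and Cox6a1 (295).

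**Figure D1:**
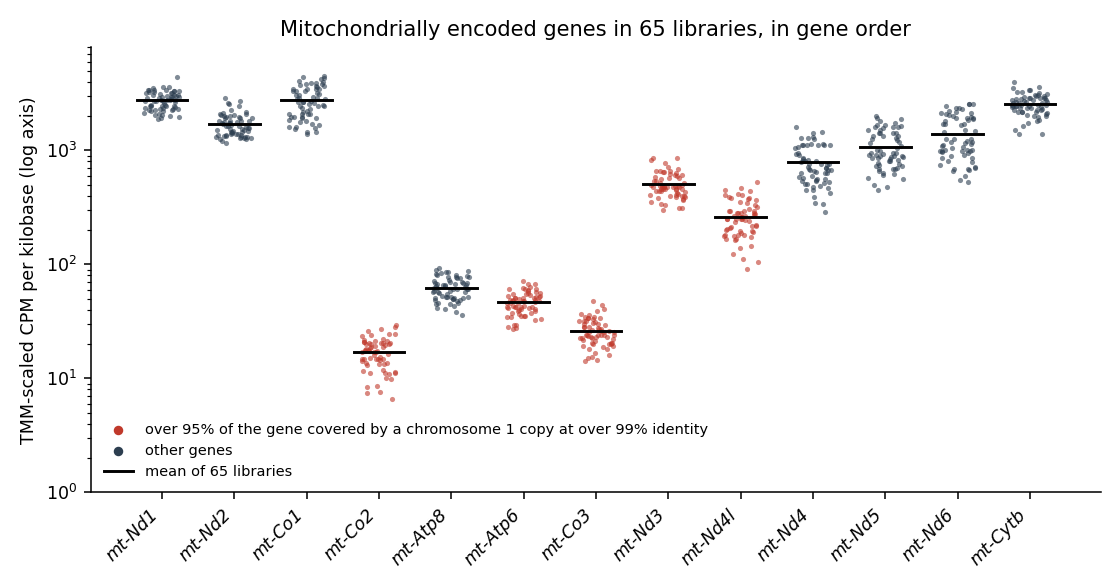
Level of each mitochondrially encoded messenger in CPM per kilobase on a log axis. Red marks the 5 genes whose sequence is covered to over 95% by an annotated copy on chromosome 1, which run from mt-Nd3 at 507 down to mt-Co2 at 16.9 on average.

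Of the nuclear members, 7 averaged under 5 CPM, all of them isoforms best known from other tissues: Cox6a2, Cox7a1 and Cox8b are the heart and muscle forms of complex IV subunits, Cox7b2 and Cox8c are known from testis, Cox4i2 is the lung and hypoxia form, and Ndufa4l2 is a hypoxia-induced relative of Ndufa4. Cox8c was at 0 in 62 libraries and Cox7b2 in 30. Their widely expressed partners were far higher, as with Cox8a. Of the 95 nuclear members, 91 to 93 passed the filter on low counts in each comparison, and all 13 mitochondrial members passed.

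Promoters of nuclear members were searched for the binding motif of NRF1, a transcription factor known to activate many respiratory genes. The palindrome GCGCATGCGC occurred in 7 of 74 members with a RefSeq promoter entry (9.46%), against 264 of 27025 promoters in all (0.977%), in 300-base windows (250 before to 50 after the start) searched on both strands. The shorter GCATGCGC, which lies within the palindrome, occurred in 12 (16.2%), against 2.8% of all. CCGGAAGT, a motif of ETS factors, occurred in 5 (6.76%), against 4% of all. The 7 were Atp5g2, Atp5k, Cox6a1, Ndufa11, Ndufaf4, Ndufaf5 and Uqcrc1. Promoter windows of 3 of them that are described below are shown from RefSeq on GRCm38.p6, with the motif in capitals.
Ndufaf4, chr4:24897950-24897999, plus strand: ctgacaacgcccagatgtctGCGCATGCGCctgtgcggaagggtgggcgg
Atp5g2, chr15:102671060-102671109, minus strand: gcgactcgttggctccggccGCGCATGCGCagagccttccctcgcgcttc
Cox6a1, chr5:115349091-115349140, minus strand: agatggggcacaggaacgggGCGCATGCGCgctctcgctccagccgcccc
Members with the same motif did not move alike: after 6 h of differentiation in young cells the log2 fold change was -1.99 for Ndufaf4 and 0.21 for Atp5g2. The motif is a match of letters and was not tested as a binding site.

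During differentiation the mitochondrially encoded messengers gained and the nuclear ones, summed, lost ground. All times were set against NSC medium at 18 h, so medium and time in culture cannot be told apart at 6 and 48 h. The labels do not say whether hours in both media count from the same start. In doxycycline-treated old NSC medium the mitochondrial sum averaged 0.938% at 6 h, 1.47% at 18 h and 1.28% at 48 h. In untreated young cells the mitochondrial sum was 1.46% ± 0.128 of the TMM-scaled library total in NSC medium, 1.53% ± 0.199 at 6 h, 1.74% ± 0.249 at 18 h and 2.14% ± 0.186 at 48 h of differentiation (SD, n = 5 each). The nuclear sum over the same series was 1.28% ± 0.0127, 1.31% ± 0.0628, 1.08% ± 0.0387 and 1.08% ± 0.0474. In untreated old cells the mitochondrial sum was 1.29% ± 0.149, 1.45% ± 0.0563, 1.78% ± 0.0734 and 1.92% ± 0.0919, and the nuclear sum 1.25% ± 0.0244, 1.24% ± 0.0186, 0.991% ± 0.0466 and 1.03% ± 0.0274 (SD, n = 4 each). As a share of unscaled counts the old nuclear sum was 1.26% at 6 h and 1.23% in NSC medium, the other way round from the scaled values. At 48 h, on the scaled values, every library of either age had a higher mitochondrial and a lower nuclear share than every NSC library of that age. The log2 ratio of the sums was higher at 48 h than in NSC medium by 0.80 in young and by 0.85 in old cells. In these cultures fewer cells of a type and less RNA per cell cannot be told apart. Summed astrocyte markers were 8870 to 10122 CPM at 48 h, against 1440 to 1672 CPM in NSC medium in young cells, and summed oligodendrocyte-lineage markers were 1522 to 3505 CPM, against 63.7 to 91.0 CPM. Their part in the shift was not tested.

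**Figure D2:**
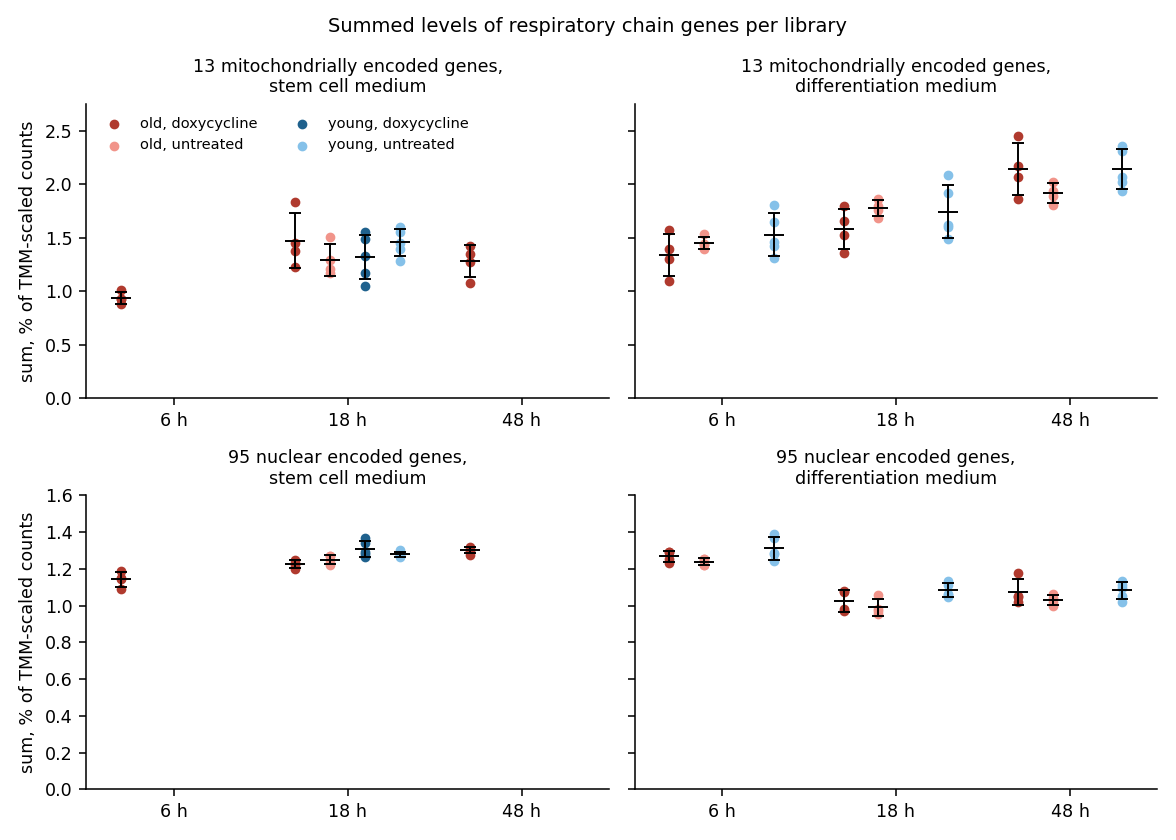
Share of TMM-scaled counts taken by the 13 mitochondrially encoded and the 95 nuclear members in each group. Dots are libraries and bars the mean ± SD, and at 48 h of differentiation the mitochondrial share averages 2.14% in untreated young cells against 1.46% in NSC medium.

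Among the 13 mitochondrial messengers, 5 rose at 6 h, 8 rose and 2 fell at 18 h, and 12 rose at 48 h in young cells, against NSC medium at 18 h (edgeR quasi-likelihood test, adjusted p under 0.05 over all features). In old cells 6 rose at 6 h, 7 rose and 2 fell at 18 h, and 10 rose at 48 h, and with animals as blocks the count at 6 h was 2. Over all tested features in young cells, 38.4% rose and 36.5% fell at 6 h, 42.3% and 40.3% at 18 h, and 41.9% and 41.1% at 48 h. In old cells the same shares were 38.2% and 37.4% at 6 h, 41.5% and 40.5% at 18 h, and 41.9% and 40.4% at 48 h. The median log2 fold change of the 13 was 0.25, 0.38 and 0.62 at 6, 18 and 48 h in young cells, and 0.20, 0.41 and 0.59 in old cells, beside medians of 0.01 to 0.03 over all features.

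Mt-Nd6, a complex I subunit and the one protein read from the light strand, moved furthest in young cells. As given above, its reads cannot be told apart from those of transcripts antisense to it. In young cells it had 345.6, 412.1, 498.6, 517.5 and 652.6 CPM in NSC medium, a mean of 660.1 CPM at 6 h and of 1041 CPM at 18 h, and 1214, 1220.5, 1267, 1310.2 and 1324 CPM at 48 h. The lowest library at 48 h was above the highest in NSC medium. The log2 fold change at 48 h was 1.42 ± 0.14 in young (SE, adjusted p = 1.94e-06) and 1.10 ± 0.075 in old cells (adjusted p = 5.71e-08, edgeR). The complex I messengers mt-Nd4 and mt-Nd5 rose beside it, by 1.07 and 1.11 in young and 1.17 and 0.98 in old cells. Mt-Co1, the catalytic subunit of cytochrome oxidase, rose by 0.62 and 0.88, and mt-Cytb, the core of complex III, by 0.36 and 0.45. Mt-Nd1 went the other way at 18 h: it had 2205 ± 253.5 CPM in young differentiating cells against 2820.2 ± 251.1 CPM in NSC medium (SD, n = 5 each), a log2 fold change of -0.31 ± 0.082 (SE, adjusted p = 0.00306, edgeR), with libraries that overlapped. In old cells it fell by 0.35 without overlap (adjusted p = 0.00457, edgeR). Neither age was called for mt-Nd1 at 48 h, with log2 fold changes of 0.11 in young and -0.08 in old cells.

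Nuclear members split by complex, and the split turned with time. At 6 h, 38 of 93 nuclear members rose and 16 fell in young cells, and 31 rose and 23 fell in old cells. At 18 h, 22 of 92 rose and 49 fell in young cells and 15 rose and 62 fell in old cells, and at 48 h the counts were 18 and 44 in young and 17 and 52 in old cells. Complex V carried the most one-sided counts: 16 of 17 members fell at 18 h in young and 17 of 17 in old cells, and 11 and 12 fell at 48 h, with none higher at either time in either age. Complex IV was the most often higher at 6 h, with 12 of 18 in young and 11 of 18 in old cells, and 2 lower in each. Complex III had 6 of 9 lower at 18 h in both ages. Of the 8 complex I assembly factors 5 fell at 6 h in both ages. These shares stand beside the background above, in which 36.5% to 42.3% of all features were called each way.

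**Figure D3:**
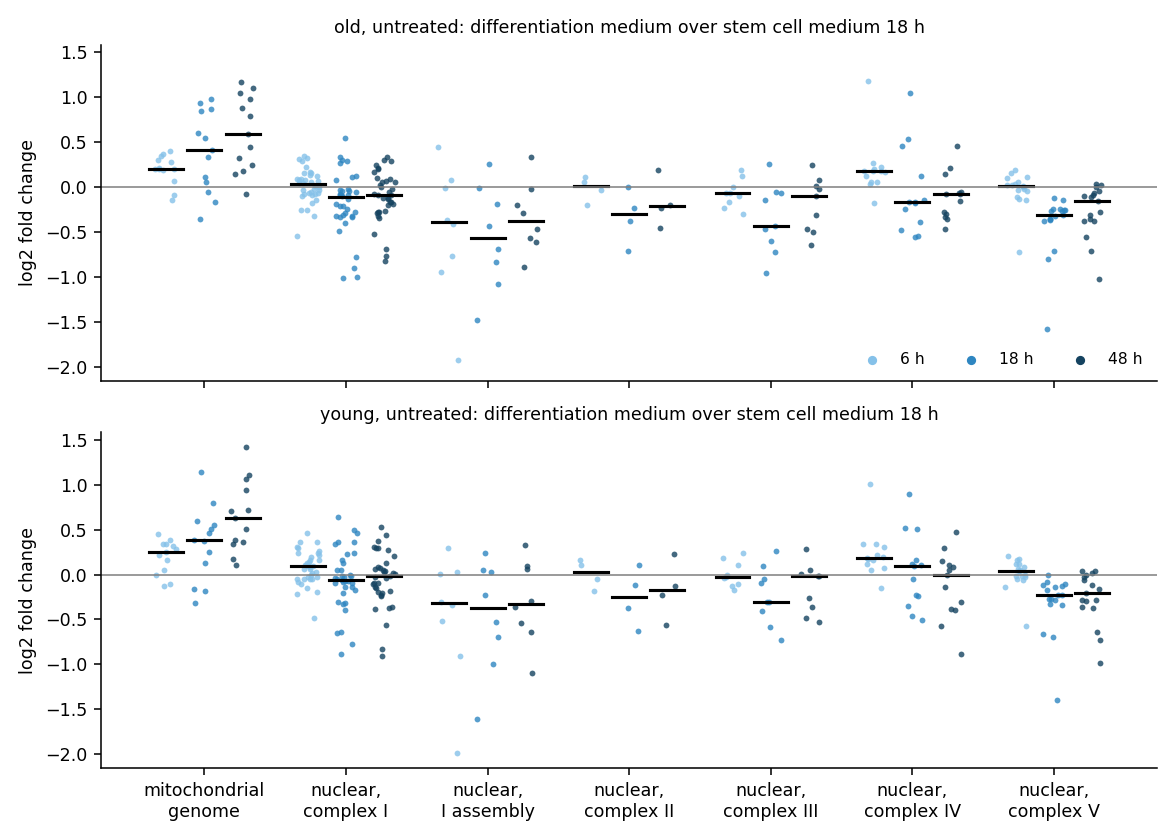
Log2 fold change of each member averaging at least 5 CPM, differentiation against NSC medium at 18 h, by complex, age and time, for untreated cells. Dots are genes and black bars medians, and complex V members lie below 0 at 18 h while mitochondrial members lie mostly above 0 at 48 h.

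Ndufaf4, a complex I assembly factor, had the greatest fall at 6 h of differentiation among members averaging at least 5 CPM, in both ages. It had 10.1, 11.4, 11.7, 12.4 and 13.8 CPM at 6 h in young cells, against 43.7, 47.0, 48.3, 48.8 and 49.7 CPM in NSC medium. The groups were far apart, and the log2 fold change was -1.99 ± 0.073 (SE, adjusted p = 3.86e-11, edgeR). It stood at -1.61 at 18 h and -1.10 at 48 h in young cells, and at -1.93, -1.48 and -0.90 at 6, 18 and 48 h in old cells. Ndufaf6, which also serves complex I assembly, fell by 0.91 at 6 h in young and 0.94 in old cells, and Ndufaf8 by 0.52 and 0.77. Ndufaf7, a methyltransferase that modifies a complex I subunit, rose by 0.44 at 6 h in old cells.

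Atp5g1, Atp5g2 and Atp5g3 encode the same mature c-subunit of the ATP synthase rotor, and they moved unequally. Atp5g1 had 40.6, 41.3, 41.5, 45.6 and 46.3 CPM at 18 h in young cells, against 112.9, 113.8, 117.0, 119.5 and 122.7 CPM in NSC medium, without overlap. Its log2 fold change was -1.40 ± 0.043 in young (SE, adjusted p = 5.62e-13) and -1.59 ± 0.048 in old cells (adjusted p = 5.4e-12, edgeR). In young cells Atp5g3 stood at -0.70 and Atp5g2 at 0.00 at that time. Atp5b, the catalytic beta subunit, averaged 1054 ± 46.8 CPM at 48 h, against 1785 ± 24.9 CPM in NSC medium, in young cells (SD, n = 5 each), a log2 fold change of -0.73 ± 0.042 (SE, adjusted p = 1.64e-09, edgeR). In old cells it was -0.71. Atp5s, known as coupling factor B of the ATP synthase, rose by 0.84 in young and 0.87 in old cells at 48 h.

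Members of the other complexes moved in both directions. Cyc1, which carries the cytochrome c1 haem of complex III, fell by 0.53 in young and 0.50 in old cells at 48 h, and Cox5a, a regulatory subunit of complex IV, by 0.57 and 0.47. Ndufc2 and Ndufab1, an accessory subunit and the acyl carrier protein of complex I, fell by 0.91 and 0.83 in young cells. Cox4i1, a subunit that regulates complex IV, rose: it had 369.6, 389.0, 392.8, 396.9 and 406.2 CPM at 48 h in young cells, against 274.2, 287.4, 290.6, 291.7 and 294.4 CPM in NSC medium. The lowest of the differentiated libraries was above the highest NSC library, with log2 fold changes of 0.47 ± 0.035 in young (SE, adjusted p = 2.24e-08) and 0.45 ± 0.034 in old cells (adjusted p = 9.33e-08, edgeR). Cox7a2l, which joins complexes III and IV in supercomplexes, rose by 0.52 in young and 0.53 in old cells at 18 h.

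Isoforms known from other tissues were low and moved in different ways. Cox6b2, known from testis, averaged 5.81 CPM in NSC medium in young cells, and 11.6, 10.5 and 3.09 CPM at 6, 18 and 48 h of differentiation, so that it was higher at 6 and 18 h and lower at 48 h, each time called. In old cells the means were 4.09, 9.21, 8.26 and 3.24 CPM, each change also called. Cox8b, a muscle form, averaged 3.25 ± 0.633 CPM at 18 h of differentiation in old cells, against 0.116 ± 0.0224 CPM in NSC medium (SD, n = 4 each). Cox6a2, another muscle form, went the other way, at 0.0171 ± 0.0218 CPM at 48 h against 2.27 ± 0.515 CPM in NSC medium in the same old animals (SD, n = 4 each). Ndufa4l2 was not called in young cells without blocks, with a mean of 0.915 CPM at 48 h against 0.783 CPM in NSC medium and groups that overlapped, and with animals as blocks it was called higher at 6 h alone. Its mean in old cells was 0.914 ± 0.146 CPM at 48 h and 0.384 ± 0.111 CPM in NSC medium (SD, n = 4 each).

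Other mitochondrial gene lists were counted in the same fits at 18 h, where 42.3% of all features rose and 40.3% fell in young cells and 41.5% rose and 40.5% fell in old cells. Of 78 mitochondrial ribosomal protein genes, 65 fell and 6 rose at 18 h in young cells (median log2 fold change -0.38) and 70 fell and 5 rose in old cells (median -0.48). Of 21 genes that process, stabilise or polyadenylate mitochondrial RNA, 15 fell and 2 rose in young and 17 fell and 0 rose in old cells at 18 h, with medians of -0.56 and -0.61. Of 38 assembly factors outside the symbol rule, 26 fell and 8 rose in young and 27 fell and 7 rose in old cells. Of 11 regulators of mitochondrial biogenesis 8 fell and 1 rose in each age. Of 14 tricarboxylic acid cycle genes 10 fell and 2 rose in young and 11 fell and 2 rose in old cells. Of 20 genes for electron carriers and nucleotide exchange 13 fell and 5 rose in each age. Genes of mitochondrial DNA maintenance and transcription were divided, with 6 higher and 9 lower of 19 in young and 7 higher and 9 lower in old cells.

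The response to differentiation was compared between ages as an interaction in untreated cells. No member was called at 6 or 18 h by edgeR, with 12 and 25 of 106 members at an unadjusted p under 0.05, beside 6.73% and 15.6% of all features. DESeq2 called 0 and 8 members, beside 0.105% and 4.37% of all features. At 48 h only Cox6b2 was called, with a log2 difference of 0.58 (adjusted p = 0.0235), the old response minus the young. Over all features edgeR called 0.0454%, 0.818% and 3.85% at 6, 18 and 48 h. With animals as blocks 2 members were called at 48 h, Cox6b2 and mt-Atp6 at -0.32, beside 4.05% of all features.

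Under doxycycline in NSC medium, old cells were sampled at 3 times. The mitochondrial sum was 0.938% ± 0.0555 at 6 h, 1.47% ± 0.258 at 18 h and 1.28% ± 0.150 at 48 h, and the nuclear sum 1.14% ± 0.0409, 1.23% ± 0.0217 and 1.30% ± 0.0165 (SD, n = 4 each). From 6 to 18 h all 13 mitochondrial members rose (median log2 fold change 0.70), and 56 of 93 nuclear members rose and 4 fell, beside 30.6% of all features higher and 30.7% lower. Complex I held 28 of those that rose, of 36, and none that fell. Ndufv3 averaged 68.2 ± 1.03 CPM at 18 h against 51.1 ± 1.10 CPM at 6 h (SD, n = 4 each), a log2 fold change of 0.44 (adjusted p = 1.35e-06, edgeR). The assembly factors Ndufaf4, Ndufaf6 and Ndufaf7 fell by 0.45, 0.42 and 0.17. From 18 to 48 h 45 nuclear members rose and 6 fell and 4 mitochondrial members rose and 1 fell, beside 26.0% of all features higher and 26.3% lower. Cox6b2 had 10.7, 12.2, 13.5 and 13.8 CPM at 48 h, against 3.61, 3.98, 4.01 and 4.06 CPM at 18 h, without overlap, a log2 fold change of 1.69 ± 0.090 (SE, adjusted p = 1.41e-07, edgeR). Without untreated cells at 6 and 48 h, time in culture and time on doxycycline cannot be told apart.

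Doxycycline itself, against untreated cells of the same age, medium and time, moved few members. Without regard to animal, edgeR called 1 member at 6 h of differentiation (mt-Nd3) and 1 at 48 h (mt-Nd2), both higher, and none in old NSC medium, in young NSC medium or at 18 h of differentiation. At an unadjusted p under 0.05 the nuclear members numbered 9 in old and 19 in young NSC medium and 12, 8 and 4 at 6, 18 and 48 h of differentiation, and the mitochondrial ones 2, 5, 7, 8 and 8, beside 8.80%, 14.5%, 8.85%, 6.69% and 8.83% of all features. DESeq2 called 2, 4, 7, 5 and 4 members in the same order, beside 1.06%, 1.75%, 0.727%, 0.321% and 0.652% of all features. In the edgeR fit, of all features 0.0180% in old and 0.0361% in young NSC medium and 0.0294%, 0.0118% and 0.0296% at 6, 18 and 48 h of differentiation were called in either direction. Since the same animals gave both arms, and libraries of 1 animal deviated together, the fit with animals as blocks is given beside it.

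Mt-Nd2, a complex I subunit, was higher with doxycycline in 19 of 21 pairs of libraries from 1 animal, and mt-Nd3, another, in 20 of 21. Mt-Co1 was higher in 2 of 21. The pairs are not independent: the same 4 old mice recur in NSC medium and at 6, 18 and 48 h of differentiation, beside 5 young mice in NSC medium. At 48 h of differentiation mt-Nd2 had 2549, 2624, 2724 and 3005 CPM in doxycycline-treated old cells, against 1573.5, 1707, 1829 and 1884 CPM in untreated old cells. The groups did not overlap, and the log2 fold change was 0.63 ± 0.070 (SE, adjusted p = 0.00833, and 0.00383 with animals as blocks, edgeR). At 6 h of differentiation mt-Nd3 had 208.1, 213.1, 231.2 and 250.4 CPM with doxycycline, against 123.7, 129.0, 138.0 and 151.0 CPM without, also apart. Its log2 fold change was 0.74 ± 0.075 (SE, adjusted p = 0.011, and 0.0492 with animals as blocks, edgeR). In NSC medium at 18 h mt-Nd3 averaged 197.5 ± 20.1 CPM with and 130.1 ± 14.1 CPM without doxycycline in old cells (SD, n = 4 each), called with animals as blocks (0.61, adjusted p = 1.55e-11, edgeR). In young cells it averaged 223 ± 29.3 CPM with and 156 ± 10.1 CPM without (SD, n = 5 each), likewise called with blocks (0.51, adjusted p = 0.00681, edgeR). At 18 h of differentiation mt-Nd3 had 215 ± 19.8 CPM with and 122 ± 23.8 CPM without doxycycline (SD, n = 4 each), without overlap, but neither fit called it (adjusted p = 0.457 and, with blocks, 0.259, edgeR). Mt-Nd3 is one of the messengers with a chromosome 1 copy, which differs from it by the single base shown above.

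Mt-Co1 was lower in every young animal: it had 2252, 2394, 2617, 3000.4 and 3381 CPM with doxycycline in NSC medium, against 3601.5, 3939.8, 4001, 4141 and 4460.4 CPM without. The groups did not overlap, but the difference was called by neither fit (log2 fold change -0.56 ± 0.11, SE, adjusted p = 0.146, and 0.0703 with animals as blocks, edgeR). It was also lower in each of 4 old animals at 6 and at 18 h of differentiation, by 0.43 and 0.47 without a call, while old NSC libraries and those at 48 h overlapped.

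The ratio of mt-Nd2 to mt-Co1 was chosen after its values were seen and is given without a test. It was higher with doxycycline in 21 of 21 pairs, and in none of the 5 comparisons did the doxycycline and untreated libraries overlap. With doxycycline and without, it averaged 0.703 ± 0.0373 and 0.475 ± 0.0388 in old NSC medium, 0.749 ± 0.0991 and 0.409 ± 0.0370 in young NSC medium, and 0.589 ± 0.0642 and 0.340 ± 0.0300 at 6 h, 0.418 ± 0.0387 and 0.222 ± 0.0263 at 18 h and 0.522 ± 0.0586 and 0.304 ± 0.0212 at 48 h of differentiation (SD, n = 4, and 5 in young cells). These are ratios of means 1.48 to 1.89 times as high with doxycycline. The ratios of mt-Nd3 and of mt-Nd1 to mt-Co1 were also higher in 21 of 21 pairs, though their groups overlapped in 1 comparison for mt-Nd3 and 2 for mt-Nd1. All these ratios share the denominator mt-Co1, higher with doxycycline in 2 of 21 pairs, so they are not separate observations. The same old animals also recur among the pairs. No chromosome 1 copy was found for mt-Nd2 or mt-Nd1, a part of mt-Co1 has one, and the copies of mt-Nd2 and mt-Co1 on chromosome 2 share 96.7% and 97.6% of their aligned bases. The share of counts in features that overlap ribosomal RNA was 1.83% ± 1.05 with and 2.695% ± 0.478 without doxycycline at 48 h of differentiation, and 1.74% ± 0.152 with and 0.999% ± 0.472 without in old NSC medium (SD, n = 4 each). Its part in the ratio was not tested.

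**Figure D4:**
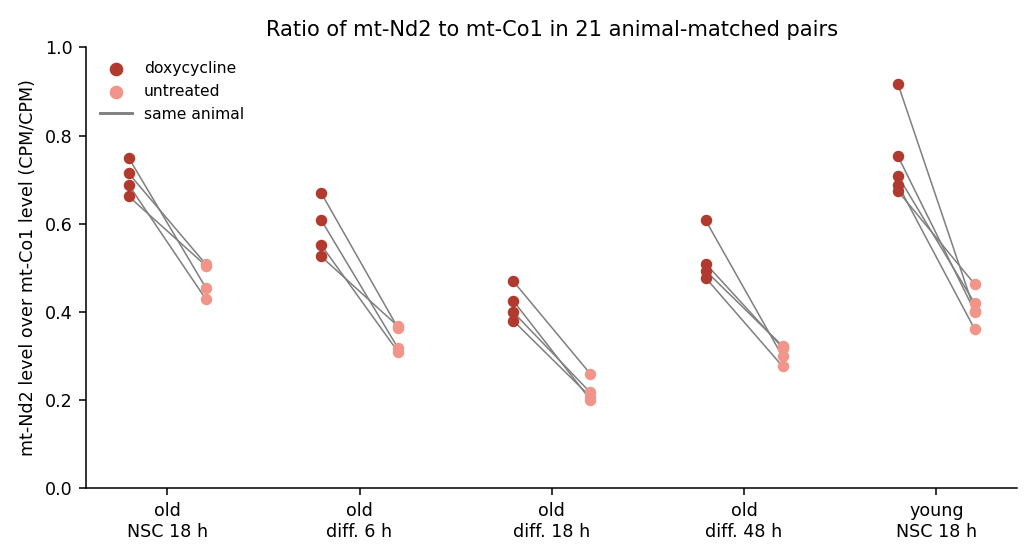
Ratio of mt-Nd2 to mt-Co1 CPM in each library, doxycycline left of untreated, with lines joining libraries of 1 animal. The ratio is higher with doxycycline in 21 of 21 pairs, among which the same old animals recur.

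**Figure D5:**
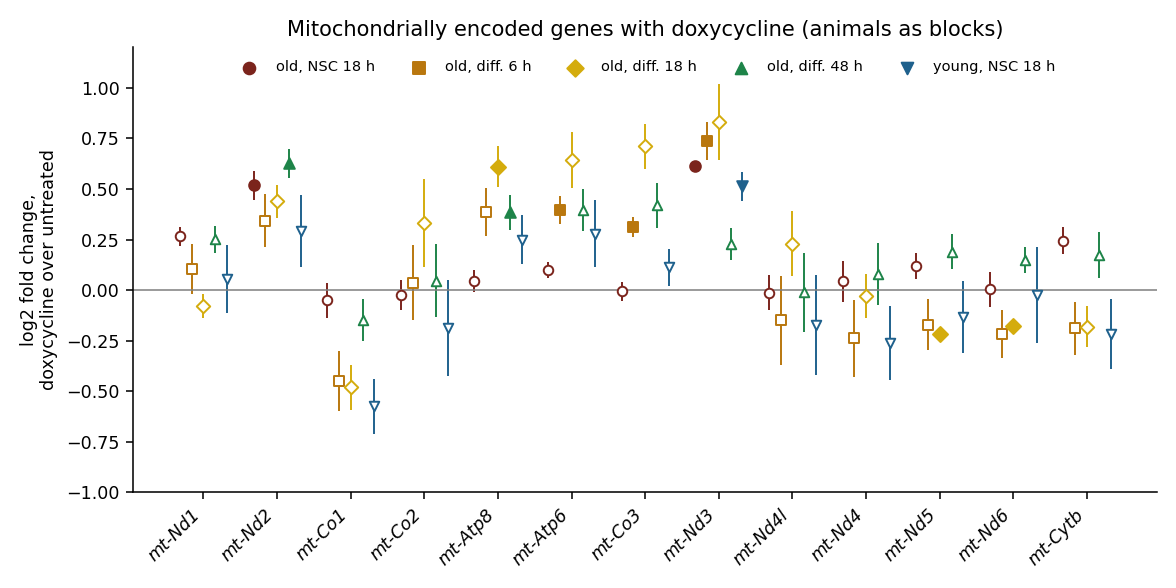
Log2 fold change of the 13 mitochondrially encoded members, doxycycline against untreated, from the edgeR fit with animals as blocks, with SE bars. Filled points passed an adjusted p under 0.05, among them mt-Nd3 at 0.61 in old and 0.51 in young NSC medium.

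With animals as blocks, 15 members were called in old and 12 in young NSC medium, and 5, 3 and 2 at 6, 18 and 48 h of differentiation. Leaving out 1 animal gave 8 to 16, 5 to 23, 2 to 6, 1 to 10 and 1 to 4, with the animals named among the limits. Mt-Nd2 was called in old NSC medium in this fit (0.52, adjusted p = 0.0436, edgeR). Beside mt-Nd2 and mt-Nd3, the mitochondrial calls were mt-Co3 (0.31) and mt-Atp6 (0.40) higher at 6 h, mt-Atp8 higher (0.61) and mt-Nd5 (-0.22) and mt-Nd6 (-0.18) lower at 18 h, and mt-Atp8 higher (0.38) at 48 h. The share of all features higher and lower in this fit was 4.18% and 7.01% in old NSC medium, 6.85% and 6.74% in young NSC medium, 1.69% and 1.98% at 6 h, 0.489% and 0.394% at 18 h, and 2.13% and 2.02% at 48 h.

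The nuclear calls in NSC medium were small, and most were lower in old and higher in young cells. They stand beside the shares of all features above, where more fell than rose in old NSC medium. The ages are compared by the interaction below, which called members only with animals as blocks. In old NSC medium 11 of 93 nuclear members fell and 2 rose, and in young NSC medium 10 rose and 1 fell. Ndufa12, an accessory subunit of complex I, had 103.7, 106.0, 115.0 and 115.5 CPM in doxycycline-treated old cells, against 121.4, 124.0, 133.5 and 134.3 CPM in untreated old cells, without overlap, a log2 fold change of -0.21 ± 0.028 (SE, adjusted p = 6.65e-05, edgeR with blocks). Cox5b, a complex IV subunit, and Ndufv2, a core subunit of the NADH-oxidising module of complex I, fell by 0.14 and 0.13 there, and Atp5e, the epsilon subunit of complex V, rose by 0.13. In young cells Ndufv3, of the same NADH-oxidising module, had 76.5, 85.7, 86.0, 88.7 and 96.1 CPM with doxycycline, against 65.6, 70.2, 72.1, 78.1 and 85.1 CPM without. These groups overlapped, but it was higher in each animal (0.22 ± 0.038, SE, adjusted p = 0.00134, edgeR with blocks). Ndufs6 and Uqcr11, accessory subunits of complexes I and III, and Cox8a rose by 0.14, 0.14 and 0.13. Ndufa3 averaged 48.9 ± 4.17 CPM with and 53.8 ± 2.697 CPM without doxycycline in old cells (SD, n = 4 each), a log2 fold change of -0.13 with blocks, against 0.17 in young cells. At 6 h of differentiation Atp5e (0.19) and Ndufa2 (0.12) rose, and no nuclear member was called with blocks at 18 or 48 h, where 22 and 13 had an unadjusted p under 0.05, beside 13.1% and 16.4% of all features.

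The difference between the ages in the response to doxycycline was tested as an interaction in NSC medium. Without blocks no member was called by edgeR, as for 0% of all features, with 23 of 106 members at an unadjusted p under 0.05 (8.83% of all features) and none called by DESeq2 (0.0289% of all features). With animals as blocks 8 members were called, beside 3.43% of all features: Ndufa3 (-0.31), Ndufa7 (-0.24), Ndufa8 (-0.26), Ndufv2 (-0.18), Ndufv3 (-0.31), Cox6a1 (-0.22), Cox8a (-0.18) and Atp5g1 (-0.18), each as the old response minus the young. The interaction of doxycycline with medium in old cells at 18 h had no member called by edgeR, beside 0.00566% of all features. It had 21 of 106 members at an unadjusted p under 0.05, beside 10.01% of all features, and 3 called by DESeq2, beside 0.745%.

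Doxycycline also moved cell type markers in the blocked fit. In old cells 6 of 8 astrocyte markers were lower in NSC medium and 3 of 8 at each time of differentiation, and 1, 2, 3 and 4 of 9 oligodendrocyte-lineage markers were higher in NSC medium and at 6, 18 and 48 h. Summed oligodendrocyte-lineage markers at 48 h were 4136 to 5983 CPM with and 3630.5 to 4999 CPM without doxycycline. Their part in the respiratory chain results was not tested. The other mitochondrial lists had few calls there: of 78 ribosomal protein genes 6 fell in old and 3 in young NSC medium, where 7.01% and 6.74% of all features fell. Of 14 tricarboxylic acid cycle genes 5 fell in old NSC medium and 2 rose at 48 h of differentiation, where 2.13% of all features rose.

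In untreated cultures nearly all members called by age were lower in old than in young cells, by small amounts. In NSC medium at 18 h 7 members were called: Cox6b2, Ndufaf4, Sdhd, Uqcrfs1, Uqcrc2 and mt-Co1 were lower and Cox6a2 was higher in old cells, beside 3.09% of all features higher and 2.86% lower. At 6 h of differentiation none was called (edgeR), beside 0.710% of all features higher and 0.721% lower. At an unadjusted p under 0.05 there were 28 nuclear and 2 mitochondrial members, beside 13.9% of all features, and DESeq2 called 6 members, beside 4.34%. At 18 h 9 nuclear members were lower and none was higher, beside 2.85% and 2.34%, and at 48 h 4 nuclear and 3 mitochondrial members were lower and none was higher, beside 5.63% and 5.02%. The median log2 fold change of the nuclear members was -0.05, -0.07, -0.10 and -0.06 in these 4 comparisons, and that of all features lay within 0.01 of 0.

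Sdhd, a membrane anchor of complex II, had 129.4, 130.5, 132.9 and 133.1 CPM in old NSC medium, against 141.8, 142.7, 144.7, 147.0 and 147.5 CPM in young NSC medium, without overlap. The log2 fold change was -0.15 ± 0.027 (SE, adjusted p = 0.0108, edgeR), and it was -0.19 at 18 h of differentiation (adjusted p = 0.0171). Cox6b2 averaged 4.09 ± 0.130 CPM in 4 old and 5.81 ± 0.457 CPM in 5 young animals (SD), a log2 fold change of -0.52 (adjusted p = 0.00509, edgeR). Mt-Co1 averaged 3207 ± 399.4 CPM in old and 4029 ± 312.3 CPM in young NSC medium (SD, n = 4 and 5), with libraries that overlapped (-0.34, adjusted p = 0.0374, edgeR). With sex as a covariate mt-Co1 was not called (adjusted p = 0.0555, edgeR). The 9 lower at 18 h of differentiation were Ndufc2 (-0.23), Cox6a1 (-0.21), Ndufv3, Sdhd, Cox8a, Cyc1, the iron-sulfur protein Uqcrfs1 and both Atp5o features. At 48 h mt-Nd6 had 987.7, 1030.3, 1068 and 1101.5 CPM in old cells, against 1214, 1220.5, 1267, 1310.2 and 1324 CPM in young cells, without overlap, a log2 fold change of -0.27 (adjusted p = 0.00678, edgeR). Mt-Nd2 (-0.22), mt-Nd5 (-0.23), the complex II flavoprotein Sdha (-0.15), Cox7a2l (-0.17), Ndufaf7 (-0.17) and Ndufaf1 (-0.18) were also lower. Here too, reads of mt-Nd6 and of transcripts antisense to it cannot be told apart. Summed oligodendrocyte-lineage markers at 48 h were 3630.5 to 4999 CPM in old and 1522 to 3505 CPM in young cells, without overlap, and their part in these differences was not tested. The counts of members called by age moved with single animals, as given among the limits.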

How the data were processed

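Poly(A) RNA was sequenced from 65 libraries with a stranded kit and paired reads of 150 bases, per the labels. The authors deposited counts per gene and variance-stabilised log2 values; the submitters' processing notes name the build mm10, the aligner STAR 2.7.10b, DESeq2 1.40.1, Subread, SAMtools and Trim Galore 0.6.6. Strand setting and treatment of multiply matching reads are not given in the sources used here. Symbols came from GENCODE M21.

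The counts were tested with edgeR 4.0.16 (robust quasi-likelihood, TMM factors of 0.967 to 1.040, filterByExpr with a minimum count of 10, Benjamini-Hochberg adjustment over all tested features, threshold 0.05), each comparison on its own libraries. DESeq2 1.42.0, limma 3.58.1 on the deposited log2 values, other scalings, no filter, sex as a covariate and leaving out each animal were alternatives. Only the fits of doxycycline in old NSC medium and of age in NSC medium, both at 18 h, were run on simulated counts. With animals as blocks the simulated spread was capped and not taken from the data. That run therefore cannot show how often the blocked fit errs on these data. Replicate numbers name animals: same-animal deviations correlated at 0.226 to 0.838 over 11823 genes, so fits with animals as blocks are given. Deviations of different animals correlated at up to 0.537, so the ranges overlapped, with a negative median in every comparison. Each SD is between animals. The SE of a log2 fold change comes from the edgeR fit, which shares information on spread among genes. With animals as blocks it is the error of the difference within animals. Copies were sought with blastn 2.17.0+. Members and lists were chosen with earlier results of these data known. Named were the 13 mitochondrial members, core subunits, isoforms and, per comparison, up to 5 nuclear members per direction with the greatest called change, at least 5 CPM and no overlap. Members named beside these were chosen after their values were seen. Values of 1 member that this rule names are not reported here.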

Additional observations from a re-analysis of the deposited data

Results flagged for a closer look

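In 240 group and measure combinations of 4 or 5 libraries, 8 had 1 library far from the others by Dixon's test, and chance flags about 1 in 20. Among untreated old cells at 48 h of differentiation, replicate 3 had a log2 ratio of the mitochondrial to the nuclear sum of 0.989 (others 0.851 to 0.865), and replicate 4 had 2165 CPM of mt-Nd1 (others 2660 to 2752). In untreated old NSC medium, replicate 4 had 109.0 CPM of mt-Nd3 (others 135.9 to 138.9) and replicate 1 had 74.7 CPM of mt-Nd4l (others 52.5 to 53.7). Mt-Nd6 was 468.5 CPM in replicate 4 of doxycycline-treated old NSC medium at 48 h (others 354.6 to 363.9). Mt-Co2 was 12.2 CPM in replicate 1 of doxycycline-treated old NSC medium at 18 h (others 6.92 to 7.81) and 20.1 CPM in replicate 4 of doxycycline-treated old cells at 48 h of differentiation (others 13.8 to 13.98). Mt-Atp6 was 34.3 CPM in replicate 4 of untreated old cells at 6 h of differentiation (others 28.8 to 29.4).

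Whether the response to doxycycline in NSC medium was called as differing between old and young cells depended on the fit. Without blocks, the interaction test called 0 members by edgeR and by DESeq2. With animals as blocks edgeR called 8 members, beside 589 of 17177 tested features. The old response minus the young was -0.306 for Ndufa3, -0.243 for Ndufa7, -0.255 for Ndufa8, -0.179 for Ndufv2, -0.314 for Ndufv3, -0.223 for Cox6a1, -0.176 for Cox8a and -0.18 for Atp5g1, on the log2 scale. The response to 48 h of differentiation was called as differing by 0.58 for Cox6b2 (0.577 with animals as blocks) and by -0.315 for mt-Atp6 with blocks. Of 17797 tested features, edgeR called 686 without and 721 with blocks there.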

How the results depend on the processing

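Counts of called members under doxycycline changed with the fit used. In old NSC medium 0 members were called, but 2 by DESeq2, 2 in one fit over all groups and 15 with the replicate block. In young NSC medium 0 became 4, 3 and 12. At 6 h of differentiation 1 became 7 by DESeq2, 2 without a filter, 2 with limma on the deposited values and 5 with the block. At 18 h 0 became 5, 1, 1 and 3, and 3 in one fit over all groups. At 48 h 1 became 4 by DESeq2 and 2 with the block. For age in NSC medium 7 became 19 by DESeq2 and 4 with sex as a covariate. At 6 h of differentiation 0 became 6 by DESeq2, 1 without a filter and 8 in one fit over all groups. At 18 h 9 became 21, 24 in one fit over all groups and 5 with sex. At 48 h 7 became 11 by DESeq2. Interactions gave 8 members with the block for doxycycline and age, 3 by DESeq2 for doxycycline and medium, 8 by DESeq2 for differentiation at 18 h and age, and 2 with the block and 5 by DESeq2 at 48 h. The cause was not tested. Except where stated above, the share of all features called is not given for these fits or with an animal left out. A rise in members called there cannot be told apart from a general rise in calls.

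Leaving out each animal in turn, doxycycline calls ranged over 0 to 0 in old and 0 to 8 in young NSC medium, and 0 to 2, 0 to 4 and 0 to 1 at 6, 18 and 48 h. The 8 came without young replicate 5. The call of mt-Nd3 at 6 h was lost without old replicate 1, 2 or 3 and that of mt-Nd2 at 48 h without replicate 1 or 2, with log2 fold changes of 0.68 to 0.74 and 0.64 to 0.66. With blocks the ranges were 8 to 16 in old and 5 to 23 in young NSC medium, and 2 to 6, 1 to 10 and 1 to 4. The lowest in old NSC medium came without replicate 2, and the highest in young NSC medium without replicate 5 and at 18 h without replicate 4. Age calls ranged over 2 to 18 in NSC medium (18 without young replicate 5), and 0 to 1, 1 to 29 (29 without old replicate 1) and 1 to 14 (14 without young replicate 4) at 6, 18 and 48 h of differentiation. Counts of all members called for differentiation and for time stayed within 1.5 times the reported ones in every fit run, but the mitochondrial members higher at 6 h in old cells numbered 6 without and 2 with the block. The log2 ratio of the sums at 48 h was 0.73 to 0.83 in young and 0.76 to 0.94 in old cells. It was 0.67 in old cells without 7 members (mt-Nd3, mt-Nd4, mt-Nd4l, mt-Co1, mt-Co2, mt-Co3 and mt-Atp6). These align to an annotated nuclear copy at 99% identity or more over all or part of their length. From 6 to 18 h on doxycycline the log2 ratio was 0.47 to 0.61.

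Of 3493 alternatives for 299 called gene values, 3227 stayed called, 266 lost the call and 0 changed direction, and 193 of those losses came from leaving out an animal.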
